A study of Mus musculus with 32 samples.

Results

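Tmigd1, Fabp2, Isx, Vil1, Muc3, Car1, Car4 and Anpep encode proteins of the mature absorptive cell of the gut and of its brush border. They were followed in the distal colon of Myd88 knockout (KO) and wild-type (WT) mice, with and without a regimen that causes colitis and later colon tumours. These 8 genes, of 18193 measured, were selected on their platform gene symbols, and each was represented by the probe set with the highest mean log2 signal over the 32 arrays. That mean is the only measured value the choice of probe set used. The genes themselves were named with earlier results of these data known, so their p-values below are those of a fit over all genes and are not independent support for the choice.

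The groups were 10 treated KO, 10 treated WT, 6 untreated KO and 6 untreated WT mice, with an Affymetrix array of total distal colon RNA for each. All were C57 BL6NCr mice, and the KO mice (Myd88-/-) had been backcrossed to that background; Myd88 is the adaptor that relays signals from Toll-like receptors and from receptors of the IL-1 family. Treated mice of either genotype, 6 to 8 weeks old, were injected intraperitoneally with 10 mg/kg azoxymethane (AOM), a colon carcinogen. Starting 1 week later their drinking water held 2% dextran sodium sulfate (DSS), an agent that damages the gut epithelium, for 3 days, after which they were killed. The age of the untreated mice was not given. The samples are whole tissue, and the deletion was not limited to a cell type.

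Absorptive cells of the gut are born in the crypt and mature as they move toward the surface, where they build a brush border of microvilli packed with actin bundles. Villin and its partners bundle the actin, myosins tether it to the membrane, protocadherins link neighbouring microvilli, and enzymes and membrane mucins cover the surface. In the colon such cells, the surface colonocytes, take up salt, water and short-chain fatty acids, and carbonic anhydrases supply the protons and bicarbonate that this exchange uses. Fabp2 and Isx are best known from the small intestine, where they serve fat and carotenoid handling.

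The deleted gene averaged 8.00 ± 0.31 log2 units in treated KO and 8.46 ± 0.12 in treated WT mice (SD, n = 10 each). It averaged 7.67 ± 0.11 in untreated KO and 8.40 ± 0.11 in untreated WT mice (SD, n = 6 each). Myd88 was lower in KO mice with treatment (log2 difference -0.46 ± 0.09, adjusted p = 0.00104) and without it (-0.73 ± 0.11, adjusted p = 0.000925). Treated KO arrays reached 8.31 and so overlapped the treated WT arrays, the lowest of which was 8.26. The signal of Myd88 rose with treatment in KO mice (0.33 ± 0.10, adjusted p = 0.0225). Where the probe set lies relative to the deleted part was not examined. Arrays of the same group correlated with r between 0.874 and 0.987. The mean of 11 squamous epithelium genes on single arrays ran from 4.20 to 7.76 in treated KO and from 4.10 to 11.03 in treated WT mice. Treated WT repeats 1 and 2 were therefore also left out together. All 10 general epithelium genes (such as Epcam and Cdh1) and all 8 goblet cell genes were measured, and none was at the floor of the table on every array of a group. Where nothing else is said, a level is a quantile normalized log2 signal, a difference is a log2 difference ± its standard error (SE) from limma, and a gene was called when its p, adjusted by Benjamini and Hochberg's method across the 18193 genes, was under 0.05. Signals under 10 had been raised to 10 in the table, which is 3.322 on the log2 scale.

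The members called between the treated genotypes were Tmigd1, Fabp2 and Vil1, and the member called between treated and untreated colon in both genotypes was Isx. The bases upstream of their annotated starts are shown as the stretch that was searched for short motifs. Stretches elsewhere were not examined. They were read from RefSeq on GRCm38.p6 as the 250 bases before the start, in windows at chr11:76890870-76891119 (+ strand) for Tmigd1, chr3:122894822-122895071 (+) for Fabp2, chr1:74409134-74409383 (+) for Vil1 and chr8:74872924-74873173 (+) for Isx. Of 2 starts listed for Tmigd1 the first was used. Capitals mark matches on either strand to TTTAT, a core to which the intestinal homeobox factors Cdx1 and Cdx2 bind.
Tmigd1: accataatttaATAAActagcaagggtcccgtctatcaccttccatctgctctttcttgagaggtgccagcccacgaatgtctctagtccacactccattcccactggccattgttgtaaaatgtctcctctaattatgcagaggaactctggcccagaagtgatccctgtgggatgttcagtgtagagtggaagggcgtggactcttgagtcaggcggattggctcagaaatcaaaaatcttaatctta
Fabp2: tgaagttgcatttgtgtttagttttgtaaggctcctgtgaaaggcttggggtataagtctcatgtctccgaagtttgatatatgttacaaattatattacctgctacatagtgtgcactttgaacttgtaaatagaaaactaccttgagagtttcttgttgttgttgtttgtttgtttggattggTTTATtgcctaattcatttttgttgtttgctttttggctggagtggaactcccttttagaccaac
Vil1: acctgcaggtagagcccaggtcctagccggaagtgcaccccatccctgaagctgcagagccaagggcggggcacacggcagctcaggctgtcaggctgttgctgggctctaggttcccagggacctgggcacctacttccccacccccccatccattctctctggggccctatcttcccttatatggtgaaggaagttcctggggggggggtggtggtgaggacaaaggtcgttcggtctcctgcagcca
Isx: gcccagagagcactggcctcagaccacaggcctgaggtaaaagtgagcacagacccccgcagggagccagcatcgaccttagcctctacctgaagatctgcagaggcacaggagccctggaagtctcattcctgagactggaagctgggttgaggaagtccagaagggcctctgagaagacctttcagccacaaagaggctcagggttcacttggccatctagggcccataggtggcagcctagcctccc

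TTTAT was found once upstream of Tmigd1, starting at position -239 (read there on the other strand), and once upstream of Fabp2, starting at -65. Muc3 held it at -222 and -26, and the windows of Isx, Vil1, Car4 and Anpep did not hold these letters. A match was present in 38.1% of the 27025 windows of that length over all genes, so its presence in 3 of 7 members is a description only. CAAAGNCC, GTTAAT and AGATAA are short cores for HNF4, HNF1 and GATA factors. They occurred in 5.16%, 6.52% and 10.3% of all windows and in none of the 7 members' windows. Car1 had no entry in the promoter table.

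**Figure D1:**
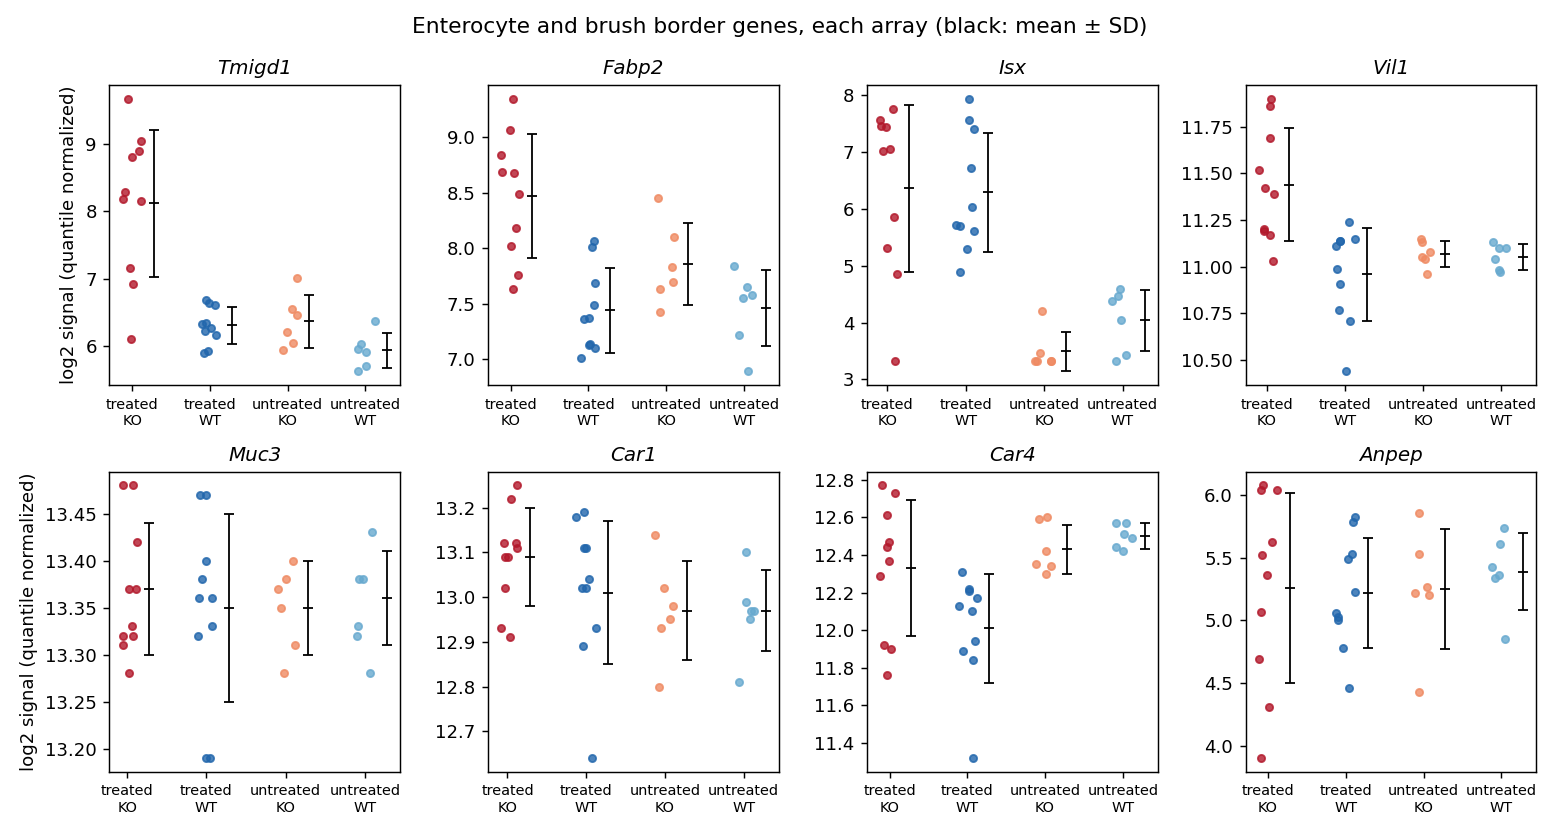
Quantile normalized log2 signal of the 8 genes on every array, in treated KO (n = 10), treated WT (n = 10), untreated KO (n = 6) and untreated WT (n = 6) mice; points are arrays and black bars are the mean ± SD. Tmigd1 reached 9.67 in treated KO mice against at most 6.69 in treated WT mice, while Isx reached 7.76 in treated KO and 7.94 in treated WT mice; each panel has its own axis, which does not start at 0.

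The first comparison asked how the treated colon of KO mice differed from that of WT mice. Tmigd1, Fabp2 and Vil1 rose in treated KO relative to treated WT mice, by 3.50-fold, 2.05-fold and 1.39-fold, and no member fell. Called were 3 of 8 members, against 12.8% of all genes, of which 1135 were higher and 1196 lower (1390 and 474 with arrays centred on their medians). The members' median difference was 0.19, and the median of all genes was 0.00 with a 90th percentile of 0.31. The other 5 members were not called. In whole tissue, fewer cells of a type and less RNA per cell cannot be told apart.

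Tmigd1, an immunoglobulin-domain membrane protein of epithelial cells that takes part in adhesion and brush border formation, varied most between these groups. Treated KO arrays ran from 6.11 through a median of 8.23 to 9.67, and treated WT arrays from 5.90 through 6.30 to 6.69. Untreated KO arrays ran from 5.94 through 6.34 to 7.02, and untreated WT arrays from 5.63 through 5.94 to 6.38. In all, 9 of 10 treated KO arrays lay above every treated WT array, and the exception was treated KO repeat 6 at 6.11. The difference was 1.81 ± 0.29 (adjusted p = 0.000237). It stayed between 1.64 and 2.03 with any single array left out. The spread within treated KO mice (SD 1.09, n = 10) was wider than within treated WT mice (SD 0.28, n = 10), and repeats 6, 9 and 8, at 6.11, 6.92 and 7.16, stood below the other 7, which lay at 8.15 or higher.

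Fabp2, the intestinal fatty acid binding protein, carries long-chain fatty acids inside the absorptive cell. Its treated KO arrays ran from 7.63 through a median of 8.59 to 9.35 and its treated WT arrays from 7.01 through 7.36 to 8.07. Untreated KO arrays lay between 7.43 and 8.45 (median 7.77) and untreated WT arrays between 6.89 and 7.84 (median 7.56). Of the treated KO arrays 7 of 10 lay above every treated WT array, and the groups overlapped. The difference was 1.03 ± 0.19 (adjusted p = 0.000851). The 3 treated KO arrays within the treated WT range of Fabp2 were repeats 3, 10 and 6, at 7.63, 7.76 and 8.02. Repeats 3 and 10 had 8.28 and 8.18 for Tmigd1, while repeat 6 was also the lowest array for Tmigd1.

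Vil1 encodes villin, the protein that bundles and severs the actin of the microvillus. Treated KO arrays ran from 11.03 through 11.41 to 11.90, and treated WT arrays from 10.44 through 11.05 to 11.24. The untreated groups were tight, between 10.96 and 11.15 in untreated KO and between 10.97 and 11.13 in untreated WT mice. In treated KO mice 6 of 10 arrays lay above every treated WT array. The difference was 0.48 ± 0.10 (adjusted p = 0.00242), and it was 0.39 ± 0.09 (adjusted p = 0.0112) without treated WT repeats 1 and 2.

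Car4 and Car1 are carbonic anhydrases of the colonocyte, Car4 anchored on the outer face of the brush border and Car1 in the cytosol. Car4 had a treated KO range of 11.76 to 12.77 (median 12.41) and a treated WT range of 11.32 to 12.31 (median 12.12). Its difference of 0.31 ± 0.12 was not called (adjusted p = 0.0803). It was called when arrays were centred on their medians (0.45), on the values as deposited (0.37) with array weights (0.32), and without treated KO repeat 1, 8 or 9 (0.36 to 0.37). Car1 lay between 12.91 and 13.25 in treated KO and between 12.64 and 13.19 in treated WT mice, a difference of 0.07 ± 0.06 (adjusted p = 0.459). Muc3, a membrane mucin of the brush border glycocalyx, lay between 13.28 and 13.48 in treated KO and between 13.19 and 13.47 in treated WT mice. Its difference was 0.02 ± 0.03 (adjusted p = 0.77).

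Muc3 and Car1 sat at percentile 99.9 of mean signal, Car4 at percentile 99.3 and Vil1 at percentile 97.6. Quantile normalization gives the brightest probe sets nearly the same value on every array, so small differences of Muc3 and Car1 carry little information. On the values as deposited, Muc3 averaged 13.40 ± 0.29 in treated KO and 13.15 ± 0.24 in treated WT mice (SD, n = 10 each). Car1 averaged 13.11 ± 0.32 in treated KO and 12.85 ± 0.27 in treated WT mice on that scale.

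Isx, a homeobox factor that in the small intestine represses the carotenoid cleavage enzyme Bco1 and the lipid receptor Scarb1, did not differ detectably between the treated genotypes. The difference was 0.08 ± 0.47 (adjusted p = 0.976), with a wide 95% interval of -0.88 to 1.03. Anpep, aminopeptidase N of the brush border, lay between 3.90 and 6.08 in treated KO and between 4.46 and 5.83 in treated WT mice. Its difference was 0.04 ± 0.24 (adjusted p = 0.969, 95% interval -0.45 to 0.54). Isx and Anpep were dim, at percentiles 38.5 and 37.5 of mean signal.

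**Figure D2:**
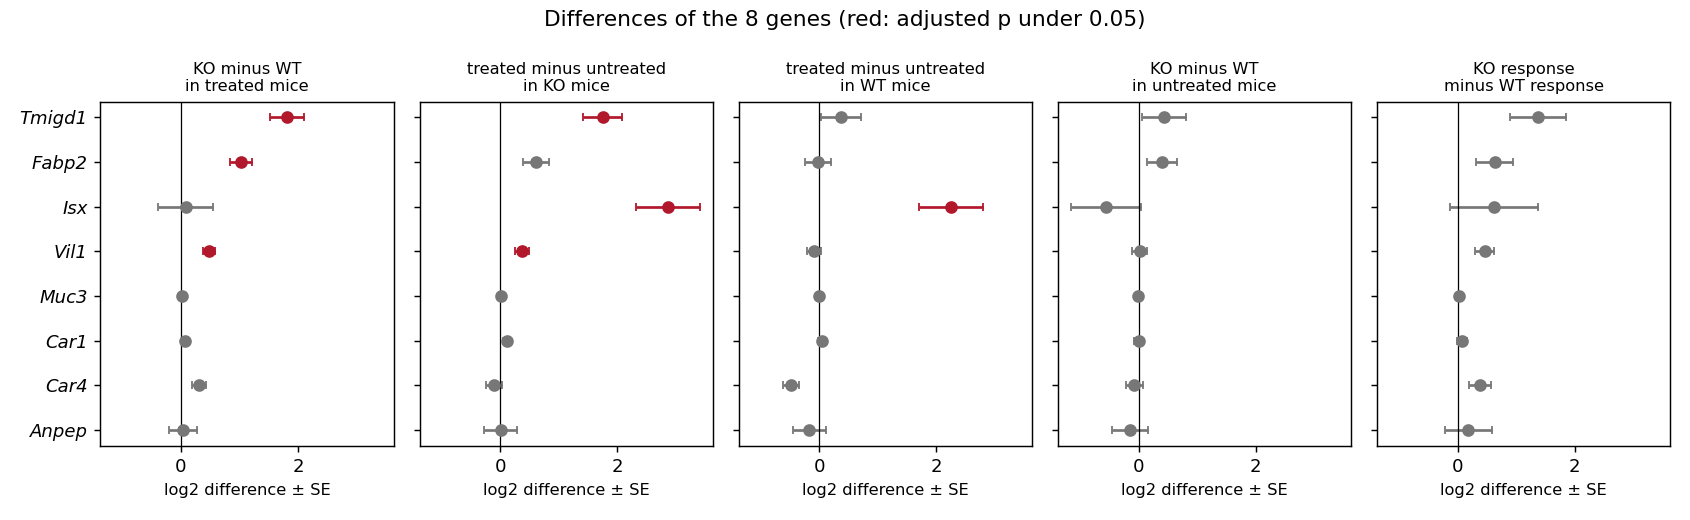
Log2 differences ± SE of the 8 genes in the 5 comparisons, from limma on 32 arrays, on a common horizontal scale; red points have an adjusted p under 0.05. Tmigd1 stood at 1.81 in treated KO minus treated WT and at 1.75 in the KO response, and Isx at 2.87 in the KO response and 2.25 in the WT response.

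Other brush border genes were read from lists of pathway genes, 153 genes that are not members. In treated KO relative to treated WT mice 34 of them rose and 5 fell, which is 25.5% against 12.8% of all genes. These genes were measured in the same tissue samples as the members, so their counts are not separate evidence. The scaffold and motor list of the brush border had 28 of 29 genes measured, of which 13 rose and none fell. All 28 differences were positive, with a median of 0.29, although Pdzk1 was at the floor on every treated WT array and differed by 0.01. Eps8, which caps and bundles microvillar actin, averaged 11.30 ± 0.40 in treated KO and 10.66 ± 0.33 in treated WT mice (SD, n = 10 each), a difference of 0.65 ± 0.14 (adjusted p = 0.00328). Cdhr2, a protocadherin of the links between microvilli, was higher by 0.58 ± 0.13 (adjusted p = 0.0049), and Cdhr5, its partner, by 0.49 ± 0.13 (adjusted p = 0.012). Myo1e, a membrane-binding myosin, rose by 0.56 ± 0.09 (adjusted p = 0.000281), and Rab11a, a GTPase of apical recycling vesicles, by 0.50 ± 0.10 (adjusted p = 0.00197). Pls1, an actin bundler, rose by 0.45 ± 0.11, Espn, another bundler, by 0.46 ± 0.13, and Myo1a, the main tether of actin to the microvillar membrane, by 0.36 ± 0.10. Ezr, the ezrin that joins actin to the membrane, had a difference of 0.26 ± 0.10 that was not called (adjusted p = 0.0865).

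**Figure D3:**
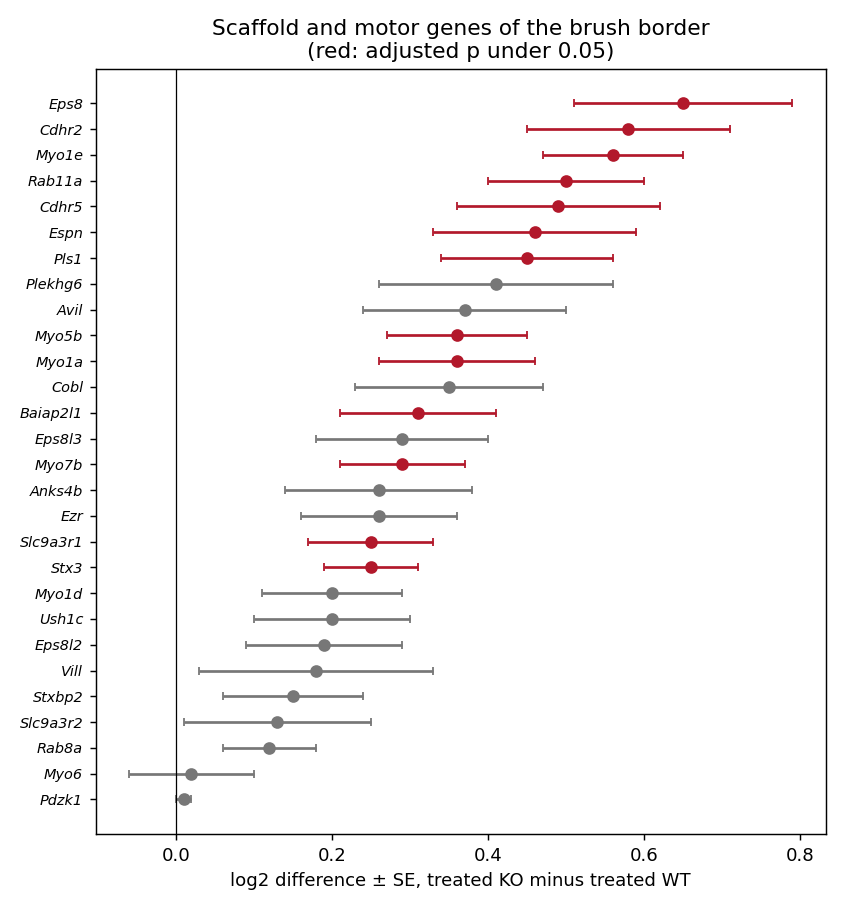
Log2 differences ± SE, treated KO minus treated WT mice (n = 10 each), of 28 brush border scaffold and motor genes, ordered by size; red points have an adjusted p under 0.05. All 28 lie at or above 0, from 0.01 for Pdzk1 to 0.65 for Eps8, and 13 were called.

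Of 22 surface colonocyte genes 8 rose and 1 fell in the treated KO colon. The guanylin gene Guca2a, a regulator of fluid secretion, rose by 1.04 ± 0.19 (adjusted p = 0.000667), Slc9a3, the apical sodium-proton exchanger, by 1.23 ± 0.28 (adjusted p = 0.00463) and Emp1, a membrane protein, by 1.10 ± 0.28 (adjusted p = 0.0085). The sulfotransferase gene Sult1a1 fell by 1.37 on the log2 scale (SE 0.30, adjusted p = 0.00328). Of 18 measured brush border hydrolases 2 rose, Mep1b (a meprin protease subunit, 0.50 ± 0.16) and Alpi (intestinal alkaline phosphatase, 0.46 ± 0.13), and none fell. The list's median was 0.04. Of 15 measured enterocyte transcription factors, Cdx2 (0.57 ± 0.15) and Creb3l3 (0.99 ± 0.22) rose and Hnf4g (-0.65 ± 0.22) fell. Cdx2 averaged 7.86 ± 0.35 in treated KO, 7.29 ± 0.33 in treated WT, 7.11 ± 0.43 in untreated KO and 7.15 ± 0.21 in untreated WT mice. Around Fabp2, 3 of 19 lipid absorption genes rose: Dgat2, which makes triglycerides, by 0.69 ± 0.22, Apoc2, a lipoprotein cofactor, by 0.66 ± 0.21 and Acsl5, an acyl-CoA synthetase, by 0.25 ± 0.06. Of the 8 other fatty acid binding proteins, Fabp6, which binds bile acids, fell (-0.65 ± 0.22, adjusted p = 0.0496) and 7 were not called. Among 14 other carbonic anhydrases Car9 (0.77 ± 0.12, adjusted p = 0.000178) and Car6 (0.69 ± 0.20, adjusted p = 0.0195) rose and none fell. No other membrane mucin of 6 was called. Of 9 other M1 aminopeptidases, the family of Anpep, Rnpepl1 rose by 0.29 ± 0.07. The brightest gene of each of these lists that was not called had a difference of -0.20 for Mep1a, -0.03 for Klf4, 0.20 for Plin2, 0.03 for Lypd8, 0.18 for Fabp4, 0.00 for Car2, 0.05 for Muc13 and -0.12 for Lta4h.

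Markers of the epithelium as a whole were read beside these genes. The mean of 10 general epithelium genes was 12.49 ± 0.12 in treated KO, 12.31 ± 0.15 in treated WT (SD, n = 10 each), 12.27 ± 0.05 in untreated KO and 12.27 ± 0.02 in untreated WT mice (SD, n = 6 each). All 10 were higher in treated KO than in treated WT mice and 4 rose (Cldn7, Cldn3, Tspan8 and Epcam), with a median of 0.23. The 6 that were not called ran from 0.01 ± 0.03 for Krt8 to 0.29 ± 0.10 for Krt18. Krt8 averaged 13.53 in both treated groups, brighter than Muc3, so after quantile normalization its small difference carries little information. Of 8 goblet cell genes 4 rose, with a median of 0.19, and of 6 enteroendocrine genes 4 rose, with a median of 0.48. Of 11 crypt stem and dividing cell genes 10 were lower, with a median of -0.27, and 2 fell, Mki67 (-0.71 ± 0.16, adjusted p = 0.00474) and Ccnb2 (-0.77 ± 0.17, adjusted p = 0.0035). The part of goblet, enteroendocrine and dividing cells in the members' differences was not tested. Squamous epithelium genes averaged 5.64 ± 1.41 in treated KO and 7.20 ± 2.22 in treated WT mice, and the median differences of the squamous and skeletal muscle lists were -1.51 and -0.59, with no gene called.

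With the epithelium mean of each array as a covariate, the difference between treated KO and treated WT mice was 1.39 for Tmigd1 (adjusted p = 0.04), 0.71 for Fabp2 (adjusted p = 0.112) and 0.13 for Vil1 (adjusted p = 0.33). Tmigd1 was then the only member called. No scaffold or motor gene was called, 20 of 28 differences were positive and their median was 0.08. The number of genes called overall dropped to 226. When the squamous and skeletal muscle means were the covariates, all 3 stayed called, at 1.82 for Tmigd1, 0.92 for Fabp2 and 0.34 for Vil1, and 5 scaffold and motor genes were called. The epithelium covariate was measured on the same arrays and differed between the groups, so part of a genotype difference can pass into it. It includes Krt8 and Lgals4, which lay near the top of the scale, where quantile normalization narrows differences.

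**Figure D4:**
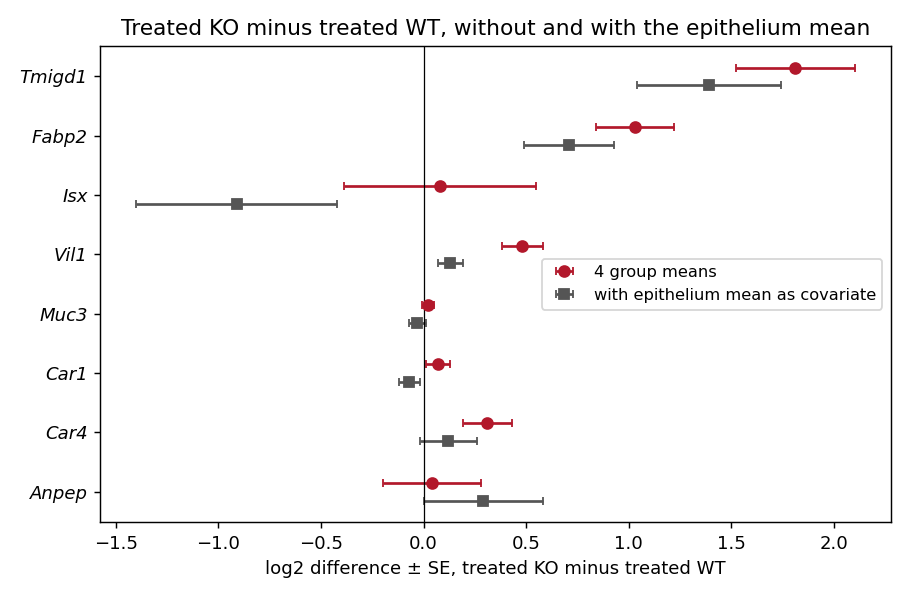
Log2 differences ± SE, treated KO minus treated WT mice, of the 8 genes from the fit of 4 group means (red circles) and from the same fit with the mean of 10 epithelium genes as a covariate (grey squares). Tmigd1 moved to 1.39, where it was 1.81 without the covariate, and Vil1 to 0.13, where it was 0.48.

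The comparison of untreated KO with untreated WT mice asked whether the members differed before the regimen. None of the 8 was called, against 0.115% of all genes, and none passed at an unadjusted p under 0.05 in limma. Tmigd1 differed by 0.44 ± 0.38 (95% interval -0.34 to 1.21) and Fabp2 by 0.40 ± 0.25 (-0.11 to 0.91). These SEs and intervals came from a spread shared by all 4 groups. For Tmigd1 the SD was 1.09 in treated KO, 0.28 in treated WT, 0.39 in untreated KO and 0.26 in untreated WT mice. All 6 untreated KO arrays lay above the untreated WT median of Tmigd1. No alternative, the compared groups alone included, called either gene. The lack of calls does not show that the untreated genotypes were alike. Vil1, with 0.02 ± 0.13, had an interval of -0.25 to 0.28. Between treated genotypes its interval was 0.27 to 0.68. Whether these differences of Vil1 differ is the question of the interaction below, where Vil1 was not called. Isx had -0.55 ± 0.60, with 4 of 6 untreated KO arrays and 1 of 6 untreated WT arrays at the floor. Car4 (-0.07 ± 0.15), Anpep (-0.14 ± 0.31), Muc3 (-0.01 ± 0.05) and Car1 (0.00 ± 0.07) completed the set. Of the 153 pathway genes only Cndp2, a cytosolic dipeptidase, was called, and it was lower in untreated KO mice (-0.95 ± 0.18, adjusted p = 0.0158).

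The response of WT mice to AOM and DSS showed a rise of Isx and no other called member, against 1.84% of all genes, or 335 genes (165 without untreated WT repeat 6). Treated WT arrays of Isx ran from 4.89 through a median of 5.88 to 7.94, and untreated WT arrays from 3.32 through 4.21 to 4.59. All 10 treated WT arrays lay above all 6 untreated WT arrays. The difference was 2.25 ± 0.54 (adjusted p = 0.0251). The call was lost without treated WT repeat 7 or untreated WT repeats 1, 2 or 6 (adjusted p = 0.0501, 0.0659, 0.0675 and 0.0555), where the difference stayed between 2.11 and 2.25. It was also lost with a covariate for RNA integrity, the difference of 3' and 5' control probe sets (1.90, adjusted p = 0.0613). For Actb that control difference was 0.33 ± 0.06 in treated KO, 0.38 ± 0.05 in treated WT, 0.46 ± 0.09 in untreated KO and 0.45 ± 0.03 in untreated WT mice (SD). For Gapdh it was -0.39 ± 0.04 in treated KO, -0.40 ± 0.03 in treated WT, -0.48 ± 0.05 in untreated KO and -0.42 ± 0.02 in untreated WT mice (SD). The covariate, the mean of both, averaged between -0.03 and 0.01 in the 4 groups. With treatment the Actb value was lower and the Gapdh value higher in both genotypes, so they partly cancelled in that mean. How well it follows RNA integrity was not tested.

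Car4 was lower on every treated WT array than on every untreated WT array. Treated WT arrays ran from 11.32 to 12.31 (median 12.12) and untreated WT arrays from 12.42 to 12.57 (median 12.50). The difference of -0.49 ± 0.14 missed the threshold (adjusted p = 0.0599). It passed with median centring (-0.64, adjusted p = 0.0151), on the values as deposited (-0.63, adjusted p = 0.0107), with probe sets averaged (-0.56, adjusted p = 0.042) and in 5 further settings. It also passed without treated WT repeat 8 or treated KO repeat 1, 7 or 9. A second probe set of Car4 had -0.62 ± 0.15 (adjusted p = 0.0364 over all probe sets). Without treated WT repeats 1 and 2 the difference was -0.43 (adjusted p = 0.0846), and it was -0.34 with the covariates for squamous and skeletal muscle tissue (adjusted p = 0.31). Isx and Car4 were the 2 members without overlap between treated and untreated WT arrays, where 1.42% of all genes had none.

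Tmigd1 (0.37 ± 0.34), Fabp2 (-0.02 ± 0.22), Vil1 (-0.09 ± 0.12), Muc3 (-0.01 ± 0.04), Car1 (0.05 ± 0.07) and Anpep (-0.17 ± 0.28) were not called in the WT response. On the values as deposited Car1 turned direction, to -0.21. Of the pathway genes 4 rose and 5 fell, 5.88% in all. Mal, a protein of apical sorting, rose by 1.28 ± 0.29 (adjusted p = 0.0169), and Car13, a cytosolic carbonic anhydrase, by 0.76 ± 0.14 (adjusted p = 0.00375). Aqp8, a colonocyte water channel, fell (-0.78 ± 0.14, adjusted p = 0.00321), as did Vdr, the vitamin D receptor (-0.66 ± 0.16, adjusted p = 0.0252), Plin2, a lipid droplet protein (-0.31 ± 0.08), and Dpp4, a brush border peptidase (-0.49 ± 0.12, adjusted p = 0.0272). Myo7b, a myosin of the links between microvilli, was the 1 scaffold gene called (-0.38 ± 0.09, adjusted p = 0.0295, not called with median centring), and the median of that list was -0.06. Of 11 crypt stem and dividing cell genes measured, 10 fell in the WT response, and the list's median was -0.99. All 11 squamous epithelium genes were higher in treated than in untreated WT mice, with a median of 2.12, and Krt14 was called (3.35 ± 0.90, adjusted p = 0.0471). All 8 skeletal muscle genes were higher, with a median of 1.30 and none called. Of 6 enteroendocrine genes 3 rose (Gcg, Pyy and Insl5), with a median of 0.58, and their part in the members' values was not tested.

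In KO mice Isx, Tmigd1 and Vil1 rose after the same regimen and no member fell, against 18.7% of all genes called. Of those genes 1582 rose and 1824 fell (1856 and 964 with median centring). This comparison and the one between treated genotypes share the treated KO arrays. Isx ran from 3.32 through a median of 7.03 to 7.76 in treated KO mice, and from 3.32 through 3.32 to 4.20 in untreated KO mice. In all 9 of 10 treated KO arrays lay above every untreated KO array, and repeat 9 was at the floor. The difference was 2.87 ± 0.54 (adjusted p = 0.000443). With 4 of 6 untreated KO arrays at the floor, that value depends on where the floor was set. Tmigd1 differed by 1.75 ± 0.34 (adjusted p = 0.000648). Vil1 differed by 0.37 ± 0.12 (adjusted p = 0.0247), a call that was lost without untreated KO repeat 3 (0.35, adjusted p = 0.0539).

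Fabp2 had 0.61 ± 0.22 and was not called (adjusted p = 0.0533). It was called, at 0.61 to 0.73, without treated KO repeat 3, 6 or 10, treated WT repeat 6, untreated KO repeat 4 or untreated WT repeat 6. Car1 (0.12 ± 0.07), Muc3 (0.02 ± 0.04), Anpep (0.01 ± 0.28) and Car4 (-0.11 ± 0.14) were not called either. On the values as deposited Muc3 (-0.22), Car1 (-0.13) and Anpep (-0.09) turned direction. The members' median was 0.24, and the 90th percentile of all genes was 0.42. With the epithelium mean as covariate no member was called in this response: Isx had 1.71 (adjusted p = 0.0673), Tmigd1 1.25 (adjusted p = 0.0564) and Vil1 -0.04 (adjusted p = 0.814). Of 10 general epithelium genes 6 rose in treated KO relative to untreated KO mice, with a median of 0.26.

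Among the pathway genes 31 rose and 14 fell in the KO response, 29.4% of the 153. Scaffold and motor genes of the brush border rose in 12 cases and fell in none, with a median of 0.28, and included Eps8 (1.00 ± 0.16, adjusted p = 0.000117), Rab11a (0.86 ± 0.12, adjusted p = 1.59e-05), Myo1d (0.60 ± 0.11) and Ezr (0.41 ± 0.11). With the epithelium mean as covariate 2 of them rose and 1 fell. Of 18 brush border hydrolases none rose and 4 fell, a split that became 1 and 1 with median centring. The 4 were Mep1a (-0.79 ± 0.16), Naaladl1 (-0.65 ± 0.23), Lct, the lactase (-0.64 ± 0.20), and Dpp4 (-0.42 ± 0.12). Lct averaged 3.47 in treated KO and 4.1 in untreated KO mice, near the floor of 3.322, so its difference depends on the floor. Surface colonocyte genes were split, with 6 of 22 that rose and 4 that fell, and their median was 0.08, or -0.07 with median centring. Emp1 rose by 2.18 ± 0.32 and Guca2a by 0.94 ± 0.22, while Sult1a1 (-1.71 ± 0.35) and Guca2b, the uroguanylin gene (-0.58 ± 0.18), fell. Mogat2 (0.98 ± 0.33) and Dgat2 (0.82 ± 0.26), which act in turn in triglyceride synthesis, rose, and Fabp6 fell (-1.02 ± 0.26). Slc27a4, a fatty acid transporter, rose by 0.46 ± 0.12. Muc13, a membrane mucin, rose by 0.50 ± 0.10 (adjusted p = 0.000879). Cdx2 rose by 0.75 ± 0.17, and Vdr fell (-0.72 ± 0.16). Of the other carbonic anhydrases Car5b (0.84 ± 0.24), Car13 (0.73 ± 0.14) and Car9 (0.65 ± 0.14) rose and Car14 fell (-0.94 ± 0.33). Of the other M1 aminopeptidases Npepps (0.32 ± 0.09) and Rnpepl1 (0.25 ± 0.08) rose, and Lvrn (-0.51 ± 0.09) and Lta4h (-0.33 ± 0.07) fell. Crypt stem and dividing cell genes fell in 10 of 11 cases here as well, with a median of -1.08.

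Retinoid genes were read beside Isx. Bco1, which Isx represses in the small intestine, averaged 5.65 ± 0.29 in treated KO, 5.37 ± 0.20 in treated WT (SD, n = 10 each), 5.75 ± 0.21 in untreated KO and 5.51 ± 0.14 in untreated WT mice (SD, n = 6 each). Its treated minus untreated difference was -0.10 ± 0.12 in KO (adjusted p = 0.642) and -0.14 ± 0.12 in WT mice (adjusted p = 0.643). Scarb1, the other gene repressed by Isx there, had -0.18 ± 0.17 in KO and -0.05 ± 0.17 in WT mice, neither of them called. Bco1 and Scarb1 were singled out for that link to Isx and not for their values. Aldh1a3, which makes retinoic acid, rose in the KO response by 2.55 ± 0.35 (adjusted p = 1.59e-05) and was higher in treated KO than in treated WT mice by 1.46 ± 0.30 (adjusted p = 0.00215). In WT mice its difference of 1.23 ± 0.35 was not called (adjusted p = 0.0664). Cyp26b1, which degrades retinoic acid, rose in both responses, by 1.04 ± 0.35 in KO and by 1.33 ± 0.35 in WT mice. Cyp26a1, a related enzyme, fell in the KO response (-0.95 ± 0.19), and Dhrs3, a retinal reductase, rose in the WT response (0.49 ± 0.12). Rdh10, which makes retinal, rose in the KO response (0.86 ± 0.15) and was higher in treated KO than in treated WT mice (0.59 ± 0.13). Aldh1a1, the brightest retinoid gene not called between treated genotypes, had -0.20 ± 0.14. Rbp2, the retinol carrier of the absorptive cell (-0.53 ± 0.17), and Bco2, a carotenoid cleaving enzyme of mitochondria (-0.81 ± 0.22), were lower in treated KO than in treated WT mice.

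Whether the KO response differed from the WT response was tested as the interaction, in which 0.055% of all genes were called, or 10 genes (164 without treated KO repeat 9). No member passed. Tmigd1 had the largest difference of responses, 1.37 ± 0.48 (adjusted p = 0.24, unadjusted 95% interval 0.39 to 2.35). Vil1 had 0.46 ± 0.16 (adjusted p = 0.246, interval 0.13 to 0.79), and Tmigd1 and Vil1 were the 2 members with an unadjusted p under 0.05. Fabp2 had 0.63 ± 0.32, Isx 0.62 ± 0.76, Car4 0.38 ± 0.19, Anpep 0.18 ± 0.40, Car1 0.07 ± 0.09 and Muc3 0.03 ± 0.06. The calls of Tmigd1 and Vil1 in KO and not in WT mice therefore do not show that the genotypes responded differently after adjustment over all genes. No pathway gene was called in the interaction, and the scaffold and motor list had 25 of 28 positive values with a median of 0.32.

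Within the treated KO mice the 3 arrays with the least Tmigd1 were also the 3 with the least Isx, in another order. Repeats 6, 8 and 9 had 4.86, 5.31 and 3.32 for Isx, and the 6 arrays of the group at 7.01 or higher for Isx all had at least 8.15 for Tmigd1. The remaining array, repeat 1, had 5.85 for Isx and a high Tmigd1 of 8.8. Over the 10 treated KO arrays Tmigd1 and Isx correlated with Pearson r = 0.78 (permutation p = 0.00722) and Spearman rho = 0.82 (permutation p = 0.00551). Over the 28 pairs of members in that group the adjusted p was 0.202 for r and 0.154 for rho, so neither passed after adjustment. Without the 2 arrays farthest from the group's median of Tmigd1, repeats 6 and 5, r was 0.76. Repeat 9, at the floor for Isx, was kept there. Over the 10 treated WT arrays the same pair had r = 0.22 (permutation p = 0.532, adjusted p = 0.899) and rho = 0.35 (permutation p = 0.331, adjusted p = 0.816). Whether the 2 correlations differ was not tested. The pair was singled out after its values were seen. Of all pairs in both treated groups, only Muc3 and Car1 in treated WT mice passed after adjustment, and only for r. They had r = 0.83 (adjusted p = 0.049) and rho = 0.81 (adjusted p = 0.0855) by permutation. Without the 2 arrays farthest from the group's median of Muc3, their r was 0.59. Isx and Vil1 in treated WT mice had r = 0.74 (adjusted p = 0.189) and rho = 0.85 (adjusted p = 0.0801), with permutation tests throughout.

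**Figure D5:**
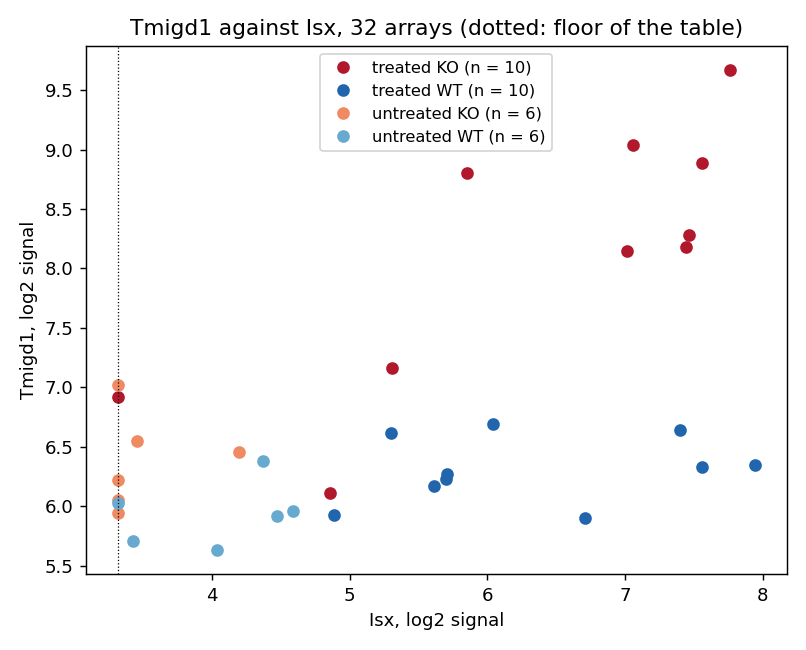
Log2 signal of Tmigd1 against log2 signal of Isx on the 32 arrays, in treated KO (n = 10), treated WT (n = 10), untreated KO (n = 6) and untreated WT (n = 6) mice; the dotted line is the floor of the table. In treated KO mice Tmigd1 ran from 6.11 to 9.67 and Isx from 3.32 to 7.76, with the lowest values on different arrays. In treated WT mice Tmigd1 stayed at 6.69 or lower with Isx up to 7.94.

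Patterns most like each member were sought over the 32 arrays after each group's mean had been removed, among 10661 genes that were not dim. They describe which genes varied together across arrays and carry no p. Why they did, tissue makeup included, was not tested. For Vil1 the nearest were Myh14 (r = 0.905), a nonmuscle myosin, Lima1 (0.894), an actin-binding protein, and Coro2a (0.893). For Isx they were Gda (0.865), guanine deaminase, Prr13 (0.862) and Muc13 (0.861). For Tmigd1 they were Ddah1 (0.841), which degrades methylarginines, Ripk3 (0.773), a kinase of necroptosis, and Capg (0.77), an actin capping protein. Fabp2 was nearest to Cgref1 (0.787), Pmm2 (0.753) and Cox5a (0.75). Car1 was nearest to Crip1 (0.804), Fam189a2 (0.8) and the epithelial keratin gene Krt19 (0.789), Car4 to Nat8f4 (0.779), Cdhr2 (0.777) and the peptide transporter gene Slc15a1 (0.769), and Muc3 to Actb (0.768), Parm1 (0.745) and Dgkd (0.728). Anpep was nearest to Scara5 (0.817), Abca9 (0.777) and Cd34 (0.772), the last a marker of stromal and vascular cells. Which cells of the tissue gave the Anpep signal was not tested, so its values cannot be read as those of absorptive cells alone.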

How the data were processed

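RNA of the distal colon of 32 mice was measured on Affymetrix expression arrays, 1 array a mouse. The deposited table held a log2 signal for each of 45101 probe sets, 64 of them controls; the summarising software was not given in the sources used here. Per its values, the authors had floored the signals at 10, where 18.7% to 23.9% of an array's probe sets lay. Array medians ran from 5.17 to 5.53. The labels number the arrays of a group as repeats, and each array was taken as a separate mouse. The number of mice, with the floor and the top of the scale, limits precision.

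The log2 values were quantile normalized over all probe sets. Of the probe sets other than controls, 34945 had 1 symbol in the platform annotation, 932 several and 9211 none, and the brightest with 1 symbol stood for each of 18193 genes; 34741 probe sets were matched to a RefSeq gene ID and no symbol changed. limma 3.58.1 in R 4.3.3 fitted the 4 group means (28 residual and 1.10 prior degrees of freedom), with two-sided tests and Benjamini-Hochberg adjustment. The script was tested on simulated data. Correlations between members used 100000 permutations (Python 3.11.15, scipy 1.17.1).

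The members, lists and tests were chosen with earlier results of these data known. Named were all members, up to 4 called genes with the largest differences in each pathway list and comparison, the brightest gene of a list that was not called, and the 3 genes most like each member. Names of epithelial markers, Pls1, Espn, Myo1a, Guca2b, Pdzk1, Bco1 and Scarb1 were added after values were seen. Some genes of the lists were not analysed here. Alternatives were median centring, the values as deposited, a filter at the 40th percentile of mean signal, probe sets averaged, array weights, a fit of the compared groups alone, a block for repeat number, a robust prior with trend, covariates for RNA integrity, other tissue and epithelium, treated WT repeats 1 and 2 left out, a threshold of 0.01 and each array left out. The same alternatives for the scaffold list were added after seeing the data.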

Additional observations from a re-analysis of the deposited data

Results flagged for a closer look

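Each member was examined in each group for an array far from the others, 32 sets of values in all, and chance flags about 1 in 20 sets. Isx in untreated KO mice had a highest array at 4.20, apart from the other 5, of which 4 were at the floor. Values tied at the floor have no spread, so the rate of 1 in 20 does not hold for this set. Car4 in treated WT mice had a lowest array at 11.32, below the next of the 10 arrays. That array was repeat 1, which also had the lowest treated WT values of Vil1 (10.44) and Car1 (12.64). Explanations for these 2 arrays were not tested.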

How the results depend on the processing

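Under the alternatives no called member difference turned sign except that of Vil1 in the KO response with the epithelium covariate (-0.04). Under settings other than leaving out 1 array the direction of 36 member differences turned; apart from Vil1 these were uncalled differences, and the cause was not tested. With the epithelium covariate, 1 member was called between the treated genotypes (3 without it) and 0 in the KO response (3 without it); leaving out 1 array gave 3 to 4 and 2 to 4. In the WT response 2 members, Isx and Car4, were called with median centring, the values as deposited, probe sets averaged, the compared groups alone, array weights, the robust prior and the epithelium covariate, and 0 with the RNA integrity covariate and at a threshold of 0.01. Leaving out 1 array gave 0 to 2. The call of Vil1 in the KO response ended with the compared groups alone (adjusted p = 0.0699) and with the RNA integrity covariate (adjusted p = 0.0532), and Fabp2 there passed in 5 settings, with 0.72 (adjusted p = 0.0473) under median centring.

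Between treated KO and treated WT mice, Isx turned to -0.21 with the RNA integrity covariate, -0.91 with the epithelium covariate and -0.12 without treated WT repeats 1 and 2 (-0.08 to 0.41 with 1 array left out). Muc3 turned to -0.02 with the other tissue covariates, -0.03 with the epithelium covariate and -0.02 without treated WT repeats 1 and 2, Car1 to -0.07 with the epithelium covariate, and Anpep to -0.04 on the values as deposited (-0.05 to 0.20 with 1 array left out). Between untreated genotypes, Vil1 turned to -0.04 with the RNA integrity covariate. Median centring and the values as deposited gave 0.21 and 0.22 for Muc3 (-0.02 to 0.01 with 1 array left out) and 0.05 and 0.06 for Car4 there, and Anpep ran from -0.26 to 0.03 with 1 array left out. In the WT response, the other tissue covariates gave 0.15 for Fabp2, 0.11 for Vil1 and 0.04 for Muc3, and leaving out treated WT repeats 1 and 2 gave 0.03 for Fabp2 and 0.03 for Muc3. With 1 array left out, Fabp2 ran from -0.13 to 0.06 and Muc3 from -0.02 to 0.01, and Car1 was -0.21 under both median centring and the values as deposited. In the KO response, median centring, the values as deposited and the epithelium covariate gave -0.13, -0.22 and -0.04 for Muc3 and -0.05, -0.13 and -0.05 for Car1. Anpep there had -0.01, -0.09, -0.07 and -0.01 with median centring, the values as deposited, array weights and the other tissue covariates (-0.15 to 0.16 with 1 array left out). In the interaction, the epithelium covariate gave -0.37 for Isx, -0.02 for Muc3 and -0.07 for Car1, and Muc3 had -0.01 with the other tissue covariates and -0.01 without treated WT repeats 1 and 2.

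The labels gave no pairing of mice by repeat number. Same-numbered treated KO and treated WT arrays correlated, as deviations from their group means, with r between -0.21 and 0.36, over 0.1 in 2 of 10 pairs. For treated KO with untreated KO arrays r lay between -0.18 and 0.44, with a median of -0.02. For untreated KO with untreated WT arrays the median was 0.08. Such correlations cannot show whether mice were handled in pairs. With the replicate block the calls of members were unchanged in all 5 comparisons, and 2175 genes were called between treated genotypes, against 2331 without it. Over all genes that count was 1338 with the compared groups alone, 226 with the epithelium covariate and 1479 with the other tissue covariates, and median centring gave 1390 higher and 474 lower calls, against 1135 and 1196. In the WT response, 335 genes became 1459 with array weights, 891 with the compared groups alone, 213 with median centring, 215 with the other tissue covariates and 159 with the RNA integrity covariate. Between untreated genotypes 21 became 43 with array weights. The interaction called 10 genes, and 257 with array weights, 55 with the RNA integrity covariate, 20 with median centring, 18 with probe sets averaged, 6 on the values as deposited, 3 with the replicate block, the other tissue covariates or treated WT repeats 1 and 2 left out, and 0 with the epithelium covariate. Leaving out 1 array gave 3 to 164 genes in the interaction, with 164 without treated KO repeat 9, 36 without treated KO repeat 6 and 18 without treated WT repeat 9, and 165 to 447 in the WT response. There each untreated WT array (165 to 203) and treated WT repeat 7 (202) lowered the count by over 1.5 times. In the KO response, 3406 became 1919 and 1244 with the compared groups alone and the epithelium covariate. Scaffold and motor genes called between treated genotypes were 13, and 8 with the compared groups alone, 5 with the other tissue covariates and 0 with the epithelium covariate; in the KO response 12 became 3 with the last. These settings for the scaffold list were chosen after seeing the data. No scaling moved the median of all genes by more than 0.07. The floor limits Isx, and the top of the scale limits Muc3, Car1 and bright epithelium genes such as Krt8. The filter at the 40th percentile removed Isx and Anpep.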
